A study of Gallus gallus with 2 samples.

Results

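The interferon-stimulated and antigen presentation genes described here are 39 gene symbols, listed by name and matched to the symbol that each deposited row carries. Of the 39 symbols, 38 were found among the 23842 genes of the series, and 35 of the 38 had at least 1 TPM in either library, where TPM is the share of a gene in all transcripts, corrected for transcript length. The symbol IRF10 was absent. Gene ID 395243, which the files list as IRF9, carries IRF10 as a synonym in the RefSeq table for GRCg7b, and it had 1.55 and 1.75 TPM but was not counted. The same table calls the gene listed as USP18 (gene ID 418167) USP41. It lists IFITM1 and IFITM3 as LOC422993 and LOC770612, with the names used here as synonyms. Outside the 38, it calls the gene listed as STAT5B STAT5A.

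RNA was sequenced from explant cultures of the basilar papilla (BP), the auditory epithelium of the chick, and of the sampling times of the study only SM0 and post-SM6 were analysed here. In each pair of values the SM0 library comes first. SM0 explants came from male Momiji chicks at posthatch day 1, before exposure to streptomycin (SM), an antibiotic that kills hair cells (HCs), and are labelled as holding HCs and supporting cells (SCs). Post-SM6 explants from the same kind of chick had 48 h of SM, given with penicillin, and 6 h more in culture, 54 h in all. They are labelled as holding SCs. Each time point was 1 library of RNA pooled from 50 BPs after thermolysin had been used to strip the surrounding tissue. The study describes no library from explants cultured as long without SM. SM, the penicillin given with it, time in culture and the pool of chicks therefore cannot be told apart. With single libraries no test was possible, so every difference is a description, and TPM carry no sequencing depth from which an interval could be computed. Read counts that the study also published were not used here.

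The libraries were checked against these labels. All 8 HC markers were lower at post-SM6, and MYO7A, the HC myosin, had 39.4 and 8.74 TPM and OTOF, which serves synaptic release, 162 and 21.5 TPM, so HC transcripts were lower and still present. The 7 SC markers summed to 1053 and 1184 TPM, with SOX2, a progenitor and SC transcription factor, at 146 and 77.2 TPM. Markers of cells outside the sensory epithelium moved too. The 8 fibroblast markers summed to 36.3 and 373 TPM, and all 8 were higher at post-SM6 (COL1A1, a collagen chain, 14.6 and 171 TPM). The 5 endothelial markers summed to 35.8 and 23.6 TPM and went both ways, with PECAM1 at 33.3 and 17.1 TPM and CDH5 at 0.97 and 3.74 TPM. All 3 erythroid markers had less RNA at post-SM6 (HBBA, 12.1 and 7.04 TPM), as had neuronal SNAP25 (0.56 TPM at post-SM6). The part of these cell types in the results was not tested. In bulk RNA alone, fewer cells of a type and less RNA per cell cannot be told apart. By immunostaining, the study found virtually no HCs over a span that includes post-SM6, a count of cells and not of RNA.

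Interferons (IFNs) are secreted signals of infection and damage. Type I IFNs bind the receptor pair IFNAR1 and IFNAR2, whose JAK kinases phosphorylate STAT proteins, and these switch on a large set of interferon-stimulated genes (ISGs). Many ISGs encode antiviral proteins, others sense foreign RNA or restrain the response, and a further set loads peptides onto MHC molecules for display to T cells. In the study, IFN and JAK/STAT signaling is examined as a candidate signal for the activation of SCs after HC loss.

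Before SM exposure most of these genes were expressed at low to moderate levels. At SM0, 32 of the 38 genes had at least 1 TPM, 17 had at least 10 TPM, and the median was 8.00 TPM. At post-SM6, 35 had at least 1 TPM, 19 had at least 10 TPM, and the median was 9.96 TPM. A single gene, IFITM3, supplied 71.3% and 66.7% of their summed TPM. Together the 38 genes took 0.213% of the SM0 library and 0.273% of the post-SM6 library.

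**Figure D1:**
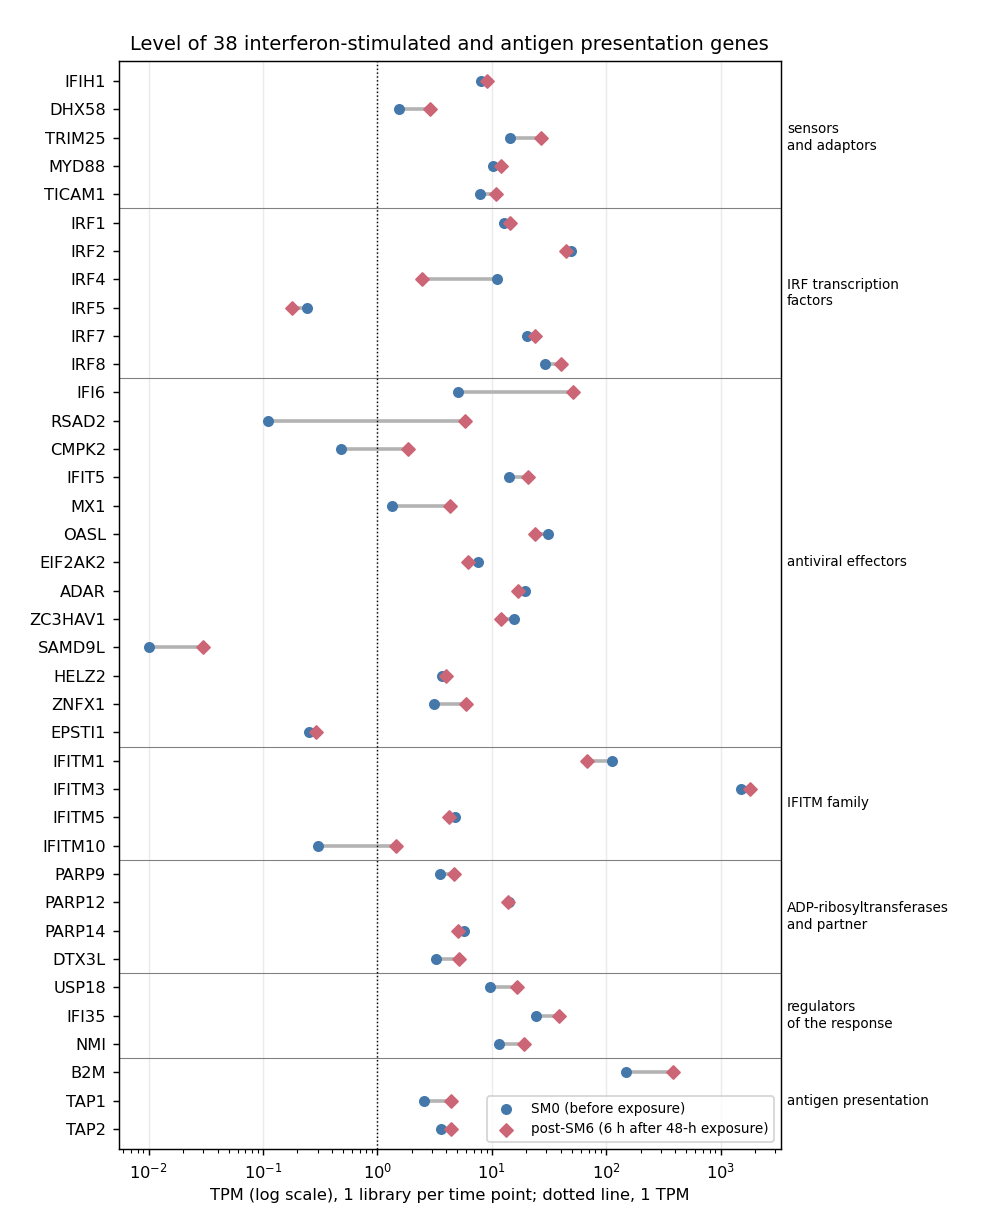
TPM on a log scale for the 38 genes found, grouped by role, with a circle for the SM0 library, a diamond for the post-SM6 library and a dotted line at 1 TPM. RSAD2 and IFI6 have the longest lines, whereas most pairs of points lie close together, and IFITM3 has 1515 and 1822 TPM.

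The log2 change of a gene is the log2 of its post-SM6 TPM over its SM0 TPM, each plus a pseudocount of 0.1, a scale that understates the change of genes with low TPM, and a gene is called higher or lower at a fold of 1.3, which is 0.379 on that scale. Of the 35 genes with at least 1 TPM in either library, 18 were higher at post-SM6, 2 were lower and 15 were within 1.3-fold (42.9%, compared with 52.8% of all genes). The higher genes are 51.4% of the 35, and 23.9% of all 13321 genes with at least 1 TPM in either library were higher. The lower genes are 5.71%, compared with 23.3% of all genes. At a fold of 2, 6 genes were higher (17.1%, compared with 9.56% of all genes) and 1 was lower (2.86%, compared with 7.83%). The median log2 change was 0.40, beside -0.02 over all genes. The listed genes were chosen with earlier results of these data known, so these contrasts with all genes are not independent of that choice.

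RSAD2, CMPK2 and IFITM10 had under 1 TPM at SM0 and entered the count only through post-SM6, where they were higher. All of them are also among the 6 genes higher at a fold of 2, so that share leans on the choice of minimum. The share at a fold of 2 was not recounted for genes with at least 1 TPM in both libraries. Among the 32 genes with at least 1 TPM in both libraries, 15 (46.9%) were higher and 2 (6.25%) were lower, and the median log2 change was 0.28. Among the 12107 genes of the series that meet the same minimum, 21.4% were higher and 21.0% lower, with a median of -0.03. Just inside the criterion for higher genes was PARP9 at 0.40, and just outside it was TAP2 at 0.28. Near the criterion for lower genes, ZC3HAV1 and OASL both had -0.37 and stayed within it, but passed it when the 10 most abundant genes were left out of the scaling.

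**Figure D2:**
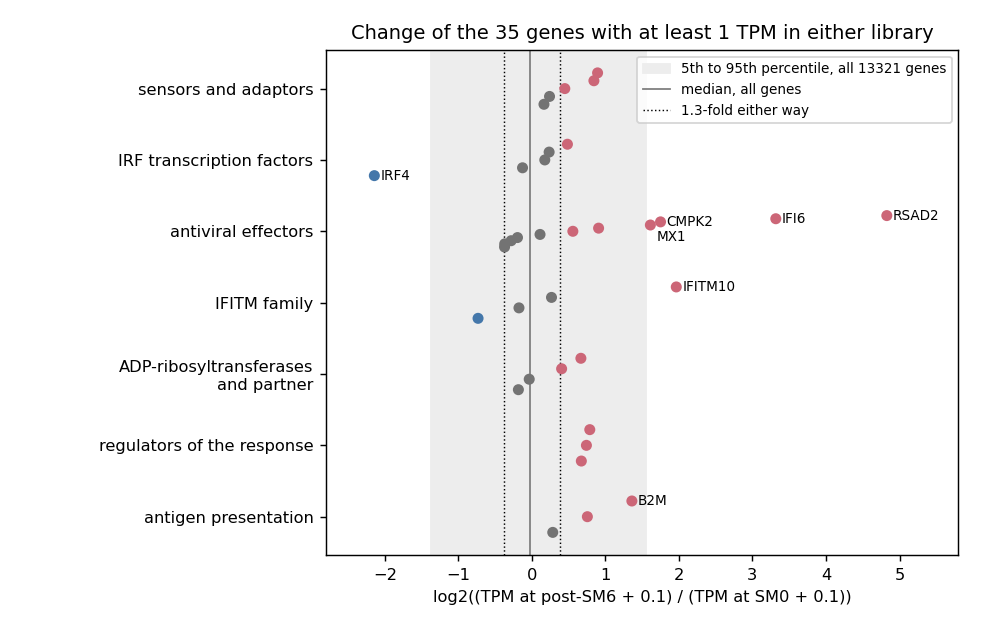
Log2 change from SM0 to post-SM6 of the 35 genes with at least 1 TPM in either library, 1 point per gene, with higher genes in red, lower genes in blue and genes within 1.3-fold in gray, and no error bars because each time point is 1 library. The shaded band runs from -1.38 to 1.55 and leaves out 5% of all 13321 genes at each end, and IRF4 lies below it while RSAD2, IFI6, IFITM10, CMPK2 and MX1 lie above it. RSAD2, IFITM10 and CMPK2 had under 1 TPM at SM0 and are drawn only because of their post-SM6 level.

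The largest log2 changes among the 35 genes were those of the antiviral effectors RSAD2 and IFI6. IFITM10, of the IFITM family, came next at 1.96. The effectors did not move as 1 block. RSAD2 encodes viperin, a radical SAM enzyme that makes a chain-terminating nucleotide, and it had 0.11 and 5.86 TPM (log2 change, 4.83). Only 23 of the 13321 genes had a larger log2 change, but this value leans on a level near 0 at SM0 and was 2.63 with a pseudocount of 1. CMPK2, a nucleotide kinase that supplies the substrate of viperin, is the immediate neighbor of RSAD2 in the RefSeq gene order of GRCg7b. It had 0.48 and 1.85 TPM (log2 change, 1.75, and 0.95 with a pseudocount of 1). Both neighbors were below 1 TPM at SM0, so only their post-SM6 level brought them into the count.

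IFI6, also known as ISG12-2 in chick, belongs to a family of small hydrophobic proteins, and was the most abundant of the strongly higher effectors. It had 5.10 and 51.7 TPM, a 10.1-fold difference (log2 change, 3.32). A larger log2 change was found for 97 genes of the series. IFI27L2, the related gene ISG12-1, was more abundant, with 195 and 308 TPM (log2 change, 0.66). MX1, a dynamin-like GTPase, had 1.35 and 4.33 TPM, a 3.21-fold difference (log2 change, 1.61). The log2 change of MX1 was 1.18 with a pseudocount of 1.

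ZNFX1, a helicase that binds viral RNA in mammals, and IFIT5, which binds foreign RNA 5' ends, differed less. ZNFX1 had 3.10 and 5.90 TPM (log2 change, 0.91), and IFIT5 had 14.1 and 20.7 TPM (log2 change, 0.56). These genes complete the 6 effectors that were higher. The 6 are 54.5% of the 11 effectors with at least 1 TPM, compared with 23.9% of all genes. RSAD2 and CMPK2 are among the 6 and entered this count only through post-SM6, so the share leans on the choice of minimum.

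The other 5 effectors with at least 1 TPM were within 1.3-fold (45.5%, compared with 52.8% of all genes), and 4 of them had less RNA at post-SM6. They include the enzymes that act on double-stranded RNA. EIF2AK2 encodes PKR, the kinase that halts translation, and had 7.55 and 6.19 TPM (log2 change, -0.28). ADAR, which deaminates adenosines in double-stranded RNA, had 19.5 and 17.0 TPM (log2 change, -0.20). OASL, of the oligoadenylate synthetase family, was among the more abundant effectors and had 31.1 and 24.0 TPM (log2 change, -0.37). ZC3HAV1 encodes the zinc-finger antiviral protein ZAP, which binds viral RNA, and had 15.5 and 12.0 TPM (log2 change, -0.37). HELZ2, a helicase and nuclear receptor coactivator, had 3.67 and 3.97 TPM (log2 change, 0.11). SAMD9L, at 0.01 and 0.03 TPM, and EPSTI1, at 0.25 and 0.29 TPM, were below 1 TPM in both libraries.

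The IFITM family encodes small membrane proteins that block the entry of enveloped viruses, and its genes showed opposite signs. IFITM3, with 1515 and 1822 TPM, held rank 101 in abundance among all genes of the SM0 library and stayed within 1.3-fold (log2 change, 0.27). IFITM1 had 112 and 67.5 TPM and was 1.66-fold lower (log2 change, -0.73). IFITM5, known in mammals for its role in bone mineralization, had 4.78 and 4.22 TPM (log2 change, -0.18). IFITM1 and IFITM3 are immediate neighbors and IFITM5 lies 1 protein-coding gene from IFITM1. In this cluster only IFITM1 passed the 1.3-fold criterion. Similar family members can share reads, which makes the split between IFITM1 and IFITM3 uncertain. IFITM10, which is not in that cluster, had 0.30 and 1.46 TPM (log2 change, 1.96, and 0.92 with a pseudocount of 1). It entered only through post-SM6. Of the 4 family genes, 1 was higher and 1 was lower (25% each), near the 23.9% and 23.3% of all genes.

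All 5 sensors and adaptors had more RNA at post-SM6, and 3 (60.0%) were higher by the criterion, beside 47.9% and 23.9% of all genes. TRIM25, a ubiquitin ligase that promotes RNA sensing, had 14.5 and 27.0 TPM (log2 change, 0.89). DHX58 encodes LGP2, an RNA helicase that modulates sensing by MDA5, and had 1.55 and 2.86 TPM (log2 change, 0.84). TICAM1, the adaptor TRIF used by TLR3, had 7.96 and 10.9 TPM (log2 change, 0.45). IFIH1 encodes MDA5, the sensor of long double-stranded RNA on which chicks depend because they lack RIG-I, and had 8.04 and 9.02 TPM (log2 change, 0.16). MYD88, the adaptor of most Toll-like receptors, had 10.2 and 12.1 TPM (log2 change, 0.24).

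The IRF transcription factors, which drive IFN genes and ISGs, numbered 5 with at least 1 TPM, of which IRF4 was lower, IRF8 was higher and 3 (60.0%, compared with 52.8% of all genes) were within 1.3-fold. These shares are near those of all genes. IRF4, known for its role in lymphocytes and in pigment cells, had 11.1 and 2.44 TPM, a 4.56-fold lower level (log2 change, -2.14). A lower log2 change was found for only 347 of the 13321 genes. IRF8, a factor of myeloid cells, had 29.0 and 40.6 TPM (log2 change, 0.48). IRF7, the chick factor that acts downstream of the RNA sensors and is also called IRF3, had 20.2 and 23.7 TPM (log2 change, 0.23). IRF1, an activator, had 12.8 and 14.4 TPM (log2 change, 0.18), and IRF2, which can oppose it, had 49.0 and 44.9 TPM (log2 change, -0.13). IRF5 had 0.24 and 0.18 TPM.

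Leukocyte markers were measured in the same libraries. PTPRC, the pan-leukocyte phosphatase CD45, had 0.83 and 1.22 TPM, and SPI1, the myeloid factor PU.1, had 0.26 and 1.72 TPM. CSF1R, a macrophage receptor, had 1.09 and 2.34 TPM, and CD3E, a subunit of the T cell receptor complex, had 34.4 and 33.9 TPM. The part of leukocytes in the level or the difference of either factor was not tested.

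Of the 4 genes for ADP-ribosyltransferases and a partner, 2 were higher (50%, compared with 23.9% of all genes). None was lower, compared with 23.3% of all genes. PARP14, DTX3L and PARP9 follow each other in the RefSeq gene order, and PARP9 and DTX3L proteins form a complex in mammals. DTX3L, the ubiquitin ligase of the complex, had 3.24 and 5.20 TPM (log2 change, 0.67), and PARP9 had 3.49 and 4.65 TPM (log2 change, 0.40, and 0.33 with a pseudocount of 1, which is within 1.3-fold). PARP14, beside DTX3L, had 5.75 and 5.05 TPM (log2 change, -0.18) and was within 1.3-fold. PARP12, which lies elsewhere, had 14.3 and 13.9 TPM (log2 change, -0.04).

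All 3 genes for regulators of the response were higher, by similar amounts, beside 23.9% of all genes that were higher. USP18, which in mammals removes ISG15 from proteins and blocks signaling from IFNAR2, had 9.63 and 16.7 TPM (log2 change, 0.79). NMI, which binds STAT proteins, had 11.4 and 19.2 TPM (log2 change, 0.74). IFI35, which forms a complex with NMI in mammals, had 24.3 and 38.9 TPM (log2 change, 0.67). The partners NMI and IFI35 thus had 1.68-fold and 1.60-fold more RNA.

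Of the 3 antigen presentation genes, B2M and TAP1 were higher (66.7%, compared with 23.9% of all genes). B2M, the invariant light chain of MHC class I, had 149 and 382 TPM, a 2.57-fold difference (log2 change, 1.36). TAP1, a subunit of the transporter that carries peptides into the endoplasmic reticulum, had 2.55 and 4.37 TPM (log2 change, 0.75). TAP2, the other subunit and the immediate neighbor of TAP1 in the gene order, had 3.63 and 4.44 TPM (log2 change, 0.28) and was within 1.3-fold. B2M added more TPM than any of the 38 genes apart from IFITM3, with 233 TPM more at post-SM6.

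The rest of this route was examined through a list of 11 genes of MHC class I and peptide loading that were found in the files. Of the 10 with at least 1 TPM, 7 (70.0%, compared with 23.9% of all genes) were higher and none was lower (23.3% of all genes), and their median log2 change was 0.46. BF1 and BF2, the classical class I heavy chains of the chick, were both over 2-fold higher, BF1 with 16.3 and 42.3 TPM (log2 change, 1.37) and BF2 with 23.5 and 55.3 TPM (1.23). These paralogs are alike enough to share reads, so the division between them is uncertain. TAPBP encodes tapasin, which bridges TAP and class I, and had 29.3 and 64.8 TPM (log2 change, 1.14). The chaperone PDIA3 had 222 and 402 TPM (log2 change, 0.85), whereas CANX, calnexin, had 177 and 171 TPM (log2 change, -0.05). PSME3, a proteasome activator subunit, had the most negative log2 change of the list, -0.15, with 103 and 92.3 TPM. NLRC5, the transactivator of class I genes in mammals, had 0.60 and 0.78 TPM.

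MHC class II genes, which serve antigen-presenting cells, were higher as well. Of 7 class II genes found, 5 reached 1 TPM, and these 5 were higher by at least 2-fold, with a median log2 change of 1.33, whereas 9.56% of all genes were higher by that fold. BLB1 and BLB2, the class II beta chains, likewise had more RNA at post-SM6, BLB1 with 1.61 and 10.3 TPM (log2 change, 2.61) and BLB2 with 11.9 and 30.0 TPM (1.33), and these paralogs can share reads too. CD74, the invariant chain, had 30.5 and 91.4 TPM (log2 change, 1.58). MHCDMA and DMB2, whose products exchange class II peptides, had log2 changes of 1.18 and 1.22. CIITA, the master transactivator of class II genes, had 0.39 and 0.27 TPM.

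Most leukocyte markers were higher together with these genes, and so were all 8 fibroblast markers, which summed to 36.3 and 373 TPM. Of 16 markers of macrophages and other leukocytes, 14 had more TPM at post-SM6, and 10 of the 13 that reached 1 TPM (76.9%, compared with 23.9% of all genes) were higher by the criterion, 8 of which had under 1 TPM at SM0 and so entered only through post-SM6. Their summed level was 47.1 and 70.2 TPM, of which CD3E gave 34.4 and 33.9 TPM. The other 15 summed to 12.6 and 36.3 TPM. C1QB, a complement subunit made by macrophages, had 0.48 and 6.07 TPM (log2 change, 3.41). The 1 lower marker was the gene listed as BLNK, which the RefSeq table calls SH2D6, with 4.64 and 3.25 TPM (log2 change, -0.50). None of the defining markers PTPRC, CSF1R and SPI1 was at 0. The part of leukocytes and of fibroblasts in the higher levels of class I, class II and B2M was not tested.

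**Figure D3:**
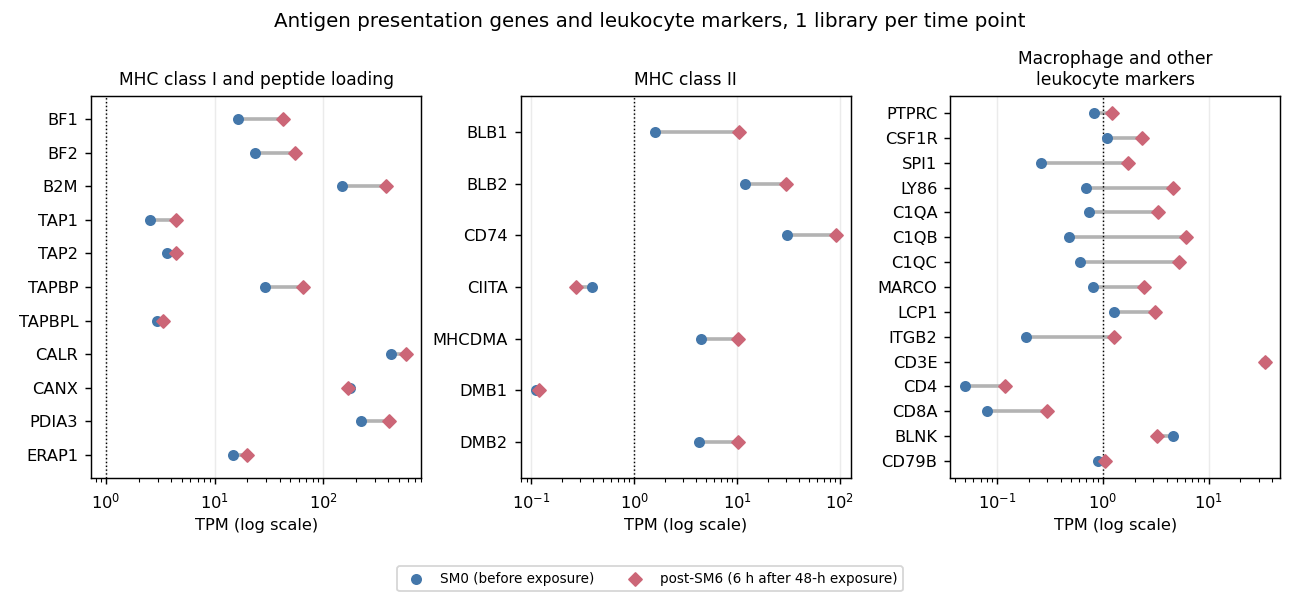
TPM on log scales at SM0 (circles) and post-SM6 (diamonds), 1 library each, for 11 genes of MHC class I and peptide loading, B2M, TAP1 and TAP2 among them (NLRC5 and the proteasome activator genes are not drawn), for 7 class II genes and for 15 leukocyte markers, with dotted lines at 1 TPM. TIMD4, at 0 TPM at SM0, is left off the log axis. BF1, BF2, B2M, TAPBP, CD74 and BLB1 lie to the right at post-SM6, as do all macrophage genes drawn. BLNK and CIITA lie to the left, CANX and CD3E barely move, and TAP2 stays within 1.3-fold.

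Upstream of the ISGs, transcripts of the IFNs themselves were scarce. Of 7 IFN ligand genes found, 4 (IFNA3, IFNKL1, IFNL3A and IFNG) were listed at 0 in both libraries. IFNAL2 had 0.35 and 0.12 TPM, IFNAL6 had 0.26 and 0.27 TPM, and IFNW1, whose RefSeq synonyms include IFNB, had 0.53 and 0.31 TPM. No ligand reached 1 TPM, and type I IFN genes are a family whose members can share reads.

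The receptors and signal mediators were expressed in both libraries. Of 5 receptor genes, 3 were within 1.3-fold (60.0%, near the 52.8% of all genes). IFNAR1 and IFNAR2 were alike, IFNAR1 with 15.6 and 18.9 TPM (log2 change, 0.27) and IFNAR2 with 15.8 and 18.9 TPM (0.26). IFNGR2, a subunit of the receptor for type II IFN, was the most abundant receptor gene of the list, with 295 and 226 TPM (log2 change, -0.39, and -0.36 with median ratio scaling, which is within 1.3-fold). Its partner IFNGR1 had 11.2 and 12.0 TPM (log2 change, 0.10), and IL10RB, shared by the receptors of type III IFN and interleukin 10, had 18.5 and 25.5 TPM (log2 change, 0.47).

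Of the 12 JAK-STAT mediators with at least 1 TPM, 9 were within 1.3-fold, compared with 52.8% of all genes, and the median log2 change was 0.04. JAK1 had 79.2 and 97.3 TPM (log2 change, 0.30), JAK2 had 5.24 and 6.40 TPM (0.28) and TYK2 had 20.8 and 17.7 TPM (-0.23), and JAK3 was below 1 TPM at 0.36 and 0.30 TPM. STAT2 had 12.5 and 12.6 TPM (log2 change, 0.01). STAT3 had 168 and 164 TPM (log2 change, -0.04), STAT5B had 29.4 and 38.9 TPM (0.40, and 0.377 without the 10 most abundant genes in the scaling, which is within 1.3-fold) and STAT6 had 19.7 and 23.1 TPM (0.23). Among the inhibitors, SOCS1 and SOCS3 were lower, with log2 changes of -1.76 and -0.90, while PIAS1 had 0.07 and the phosphatase gene PTPN11 had -0.10. The JAK-STAT feedback genes SOCS1 and SOCS3 thus differed in sign from USP18.

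Of the 13 nucleic acid sensing genes outside the 38 that reached 1 TPM, 11 were within 1.3-fold (84.6%, compared with 52.8% of all genes), with a median log2 change of 0.08. MB21D1 encodes cGAS, the sensor of cytosolic DNA, and was the 1 higher gene, with 2.76 and 5.55 TPM (log2 change, 0.98). TBK1, the kinase that activates IRF7, was the 1 lower gene, with 38.9 and 29.8 TPM (log2 change, -0.38, and -0.35 with median ratio scaling, which is within 1.3-fold). TLR3, the endosomal sensor of double-stranded RNA, stayed below 1 TPM at 0.18 and 0.69 TPM.

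Other ISGs were examined through a further list. Of its 26 genes with at least 1 TPM, 9 were higher (34.6%, compared with 23.9% of all genes) and 3 were lower (11.5%, compared with 23.3%), and the median log2 change was 0.14. CH25H, which makes the antiviral oxysterol 25-hydroxycholesterol, had 0.54 and 4.95 TPM (log2 change, 2.98) and entered only through post-SM6. LY6E, a surface protein that hinders coronavirus entry in mammals, had 6.02 and 45.6 TPM, a 7.58-fold difference (log2 change, 2.90). TNFSF10, the death ligand TRAIL, had 20.8 and 45.1 TPM (log2 change, 1.11). SAMHD1, which depletes nucleotides in resting cells, was the lowest of the list, with 50.0 and 18.2 TPM (log2 change, -1.45). The other 14 (53.8%) were within 1.3-fold, near the 52.8% of all genes.

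**Figure D4:**
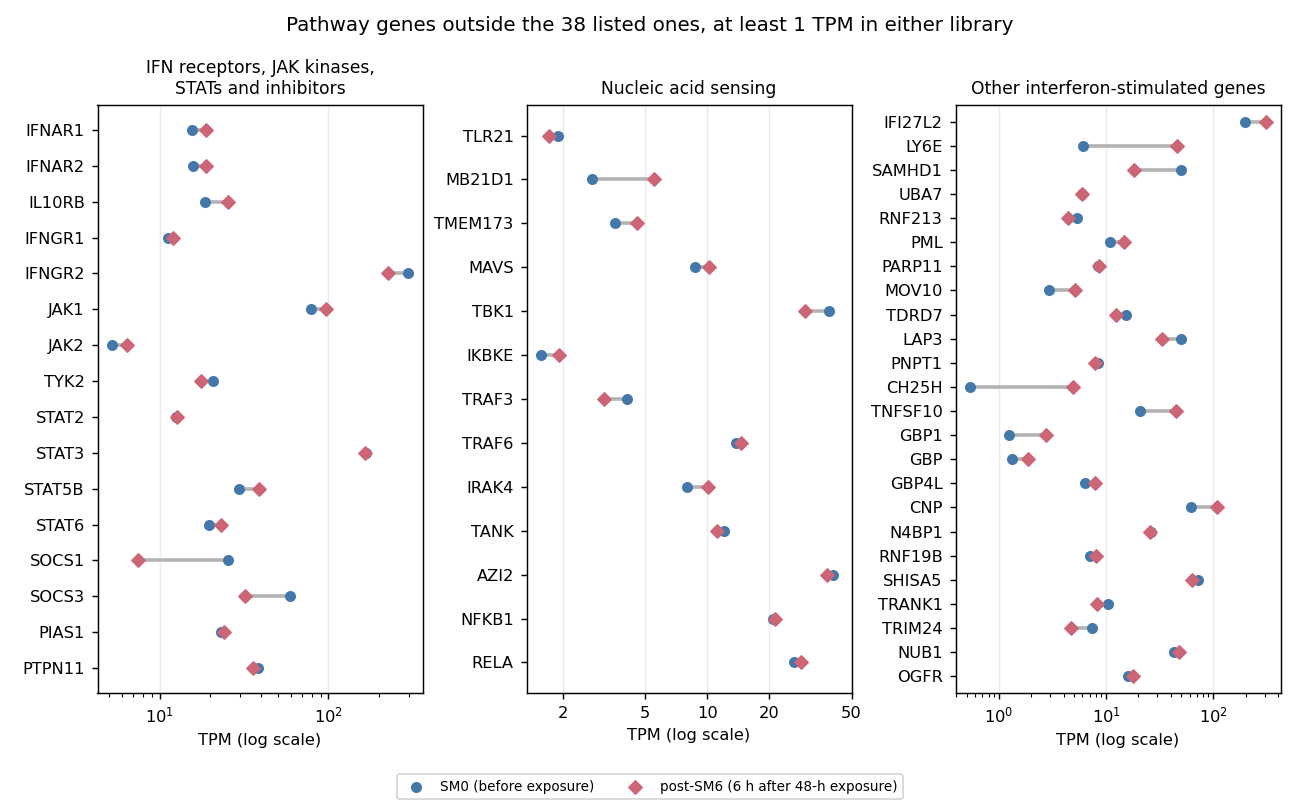
TPM on log scales at SM0 (circles) and post-SM6 (diamonds), 1 library each, for IFN receptors and 11 JAK-STAT mediators, for nucleic acid sensing genes and for 24 other ISGs, with at least 1 TPM in either library. Most pairs of points overlap or lie close together, while SOCS1, SOCS3 and SAMHD1 lie to the left at post-SM6, and LY6E, CH25H and MB21D1 to the right.

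The study ranked genes with the weighted average difference (WAD), which weights each log2 difference by how abundant the gene is. With TPM under 1 raised to 1, WAD was highest among the 38 genes for IFI6 (0.83, rank 79 of 23842 by absolute value) and B2M (0.66, rank 163). No gene of the 38 reached 0.91, the threshold used here, and 0.443% of the 13321 genes did. The study instead set its WAD thresholds to cover genes it had first listed with DESeq2 from read counts. IFI6 and USP18 are among several type I IFN and JAK/STAT genes that it reports as differentially expressed across its sampling times. The count given here on TPM is therefore not the study's own call. RSAD2, with the largest log2 change, had a WAD of 0.20 because its level was low. The most negative WAD among the 38 was -0.32 for IRF4, followed by -0.29 for IFITM1.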

How the data were processed

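The libraries were made from poly(A) RNA with the NEBNext Ultra kit, and whether reads were counted by strand is not given in the sources used here. Per the study's methods and the submitters' processing notes, the authors removed ribosomal reads with Bowtie2 2.1.0, aligned the rest to GRCg6a with STAR 2.7.1a and estimated TPM with RSEM 1.3.0. The deposited TPM are length-corrected shares of the transcripts, with sums of 999997 (SM0) and 999999 (post-SM6). They carry no depth, and the read counts that the study also published were not used, so counting intervals are not given. DEGs were called by the authors from read counts with DESeq2 and WAD. That test was not repeated, because TPM are not counts and only TPM were used here.

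Files were joined by gene ID and symbol. Log2 changes used a pseudocount of 0.1, and genes that reached 1 TPM in 1 or both libraries entered the counts. All 38 genes found are named. Of the genes on other lists, the genes with the highest and lowest log2 change, the IFN ligands, receptors and JAK-STAT mediators and the defining cell type markers are named, except 2 genes that are not reported here, and further examples were chosen after their values were seen. Listed symbols missing from the files were taken by their RefSeq symbol in GRCg7b, which 19594 of the 23842 IDs matched, and that table also gave the gene order. No sequences were used here. The members and lists were chosen with earlier results of these data known. Alternatives were pseudocounts of 1 and 0.01, other minimums, other scalings, a fold of 2 and other WAD settings. The scripts were tested on simulated data. Python 3.11.15, numpy 2.4.6, pandas 2.3.3 and matplotlib 3.10.9 were used.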

Additional observations from a re-analysis of the deposited data

How the results depend on the processing

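The number of higher genes was 17 or 18 of 35 under both other pseudocounts and both other scalings, and it was 6 at a fold of 2. The number of lower genes was 4 when the 10 most abundant genes were left out of the scaling, because OASL (-0.395) and ZC3HAV1 (-0.397) passed the criterion of -0.379, and it was 1 at a fold of 2. The median log2 change of 0.40 moved to 0.25 with a minimum of 5 TPM and to 0.28 with no minimum. It moved to 0.28 without IFI6, RSAD2, IFIT5, IFITM1, IFITM5 and USP18, 6 genes set apart here for type I IFN signaling. It also moved to 0.28 with at least 1 TPM in both libraries, an alternative added after the data were seen. Each of these alternatives changes which genes are counted. With a WAD threshold of 0.6 in place of 0.91, 2 genes (IFI6 and B2M) passed. PARP9 no longer passed with a pseudocount of 1 (0.33). The calls of the other 32 of the 35 genes were kept under both pseudocounts and both scalings. Of 69 genes on the other lists, 6 crossed the criterion under at least 1 of these. IFNGR2 and TBK1 (-0.36 and -0.35) did so with median ratio scaling. TBK1 (-0.37), GBP (0.31) and LOC112530294 (0.30), which the RefSeq table calls PSME1, did so with a pseudocount of 1. STAT5B (0.377) and TRAF3 (-0.385) did so without the 10 most abundant genes. No call reversed. The median of the MHC class II list ran from 1.22 to 1.36 and that of the class I list from 0.44 to 0.66. Scaling moved the median of all genes by less than 0.1. TPM keep no depth and read counts were not used, so the precision of low values such as those of RSAD2, CMPK2 and IFITM10 at SM0 was not estimated.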

Other observations

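CD3E, a subunit of the T cell receptor complex, had 34.4 and 33.9 TPM in the SM0 and post-SM6 libraries, whereas CD4 had 0.05 and 0.12 TPM and CD8A had 0.08 and 0.30 TPM. IFNGR2 had 26.4 times the TPM of its partner IFNGR1 at SM0 and 18.8 times at post-SM6.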
